A study of Rattus norvegicus with 24 samples.

Results

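The lungs of rats 2 and 3 weeks after a single dose of monocrotaline (MCT) were compared, using 8 of the 24 libraries of the series: all 4 MCT Week-2 and all 4 MCT Week-3 lungs. All rats were male SD rats of wild-type genotype. The MCT-treated rats received 50 mg/kg MCT by intraperitoneal injection and were taken on day 14 (Week-2) or day 21 (Week-3). The 4 PBS-treated rats of each of the same weeks, injected with PBS buffer alone, gave the same step without MCT and served as context. Each library was made from poly(A) RNA of a piece of lung of 1 rat, after the vessels had been rinsed with PBS, and Week-2 and Week-3 lungs came from different rats. Because whole lung was homogenized, fewer cells of a type and less RNA per cell cannot be told apart in any of the values below.

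MCT is a plant alkaloid that the liver turns into a reactive pyrrole, which reaches the lung first and injures the endothelium of its vessels. The lung endothelium takes up vasoactive peptides, keeps blood from clotting through thrombomodulin, and relaxes the smooth muscle beneath it through nitric oxide, which acts on soluble guanylate cyclase and raises cGMP. In rats given MCT, vessel walls thicken and macrophages and mast cells gather around the vessels, and the right ventricle works against a rising pressure.

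The libraries were of even depth, with 29889968 to 31940636 counted reads in the 8 MCT lungs and 28357609 to 31501340 in the 8 PBS lungs. Markers of endothelium, alveolar and airway epithelium, macrophages and smooth muscle were present in all of them, the summed alveolar type 2 markers for instance at 10106 to 13220.0 CPM in MCT Week-2 and 13769 to 16538 in MCT Week-3 lungs. On the first principal component of the MCT lungs, which carried 32.8% of the variance, the week accounted for 69.5% of the scores' spread (exact permutation p = 0.0286, two-sided, the smallest that 4 against 4 allows). The lungs of one week were not alike on it: the Week-3 scores were -15.7, 83.5, 69.8 and 89.9, so that Week-3 replicate 1 stood near the Week-2 lungs, whose scores were -25.9, -23.7, -92.5 and -85.5. Among the PBS lungs, Week-3 replicate 3 stood apart, with a score of 147 against 8.78 to 56.2 in the other 3. Levels below are CPM (counts of a gene per 1000000 counted reads, scaled by TMM over the 16 libraries). A gene was called when edgeR's quasi-likelihood test gave a Benjamini-Hochberg adjusted p under 0.05 and the fold change passed 1.5. Fold changes are log2 values with a standard error, which was taken as the absolute change divided by the square root of the test's F value.

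At Week-3 the MCT lungs had fewer transcripts of many endothelial genes and of some smooth muscle, pericyte and mitotic genes, and had more transcripts of 4 cathepsins and of a few macrophage and mast cell genes, than at Week-2. Of 16263 genes tested, 302 fell (1.86%) and 179 rose (1.1%). The 4 values of one week lay wholly below those of the other in 294 of the genes that fell, and wholly above in 169 of those that rose, against 7.43% and 6.3% of all genes tested. The calls were made on these same values, so this separation is not separate evidence. The counts leaned on single libraries. Without Week-2 replicates 3 or 4, 60 and 35 genes rose, and without Week-3 replicates 2, 3 or 4, 96, 102 and 30 rose. The genes that fell numbered 142 without Week-2 replicate 4, 185 without Week-3 replicate 2 and 152 without Week-3 replicate 4. Without Week-3 replicate 1, 393 rose and 426 fell. When all 24 libraries shared one estimate of the spread, 2 rose and 60 fell, and 90 rose and 229 fell once PBS Week-1 replicates 1 and 3, shallow libraries outside these comparisons, were left out.

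Symbols could be given to 3273 of the genes tested. These are genes that the study itself had listed as changed by MCT against PBS in some week, partly on these same libraries, so the counts of the gene lists below are not independent evidence of a direction. Of the genes with a symbol 6.81% fell and 1.5% rose, and each list is best read against these shares. The genes that rose are poorly covered: 223 of the 302 that fell had a symbol, but 49 of the 179 that rose, and of the 75 that rose by more than 1 on the log2 scale 65 had none. The steepest rises among genes without a symbol were those of ENSRNOG00000024181 (Rnor_6.0 chromosome 10, 14701253 to 14703668), with 9.28, 13.3, 5.09 and 7.62 CPM in Week-2 and 205, 141, 130.5 and 278 in Week-3, and of ENSRNOG00000028982 (chromosome 1, 103897041 to 103909926), with 2.25, 2.40, 0.533 and 2.81 and 44.6, 20.3, 21.5 and 39.1. The changes were 4.42 ± 0.33 (adjusted p = 0.000403) and 3.97 ± 0.44 (adjusted p = 0.00154). Every Week-3 lung exceeded every Week-2 lung in both, which the choice of these genes had required. In PBS lungs they stayed between 0.436 and 10.6 CPM and between 0.869 and 5.73 CPM.

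Endothelial genes made the clearest group. Of 49 members of the list for all vessels, 24 fell, none rose and the median change was -0.57. The median over all genes tested was 0.01. No median was computed for the genes with a symbol alone, of which 6.81% fell. The summed level of the list was 14417, 14026, 16013 and 16429 CPM in the Week-2 lungs and 9388, 9165, 9859 and 9155 in the Week-3 lungs, with no overlap. In PBS lungs it ran from 25579.9 to 27202 in Week-2 and from 23697 to 26768 in Week-3. The number that fell stayed between 20 and 23 without any 1 library.

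Calcrl (Rnor_6.0 chromosome 3, 71747956 to 71845232), which encodes the receptor for adrenomedullin and related peptides, fell the furthest of the list. It stood at 615, 537, 721 and 666 CPM in Week-2 and 236, 160.2, 184 and 177 in Week-3. All 4 Week-3 values were under every Week-2 value, a change of -1.74 ± 0.14 (adjusted p = 0.000403, edgeR), while the PBS lungs ran from 1341 to 1737 and then 1623 to 2263. Ramp2, the partner that makes Calcrl an adrenomedullin receptor, fell from 31.8, 30.8, 40.3 and 41.2 CPM to 21.4, 18.2, 21.5 and 21.1, a change of -0.81 ± 0.13 (adjusted p = 0.00848). Both parts of this receptor were lower in every Week-3 lung than in any Week-2 lung.

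Tek, the receptor for angiopoietins, was at 139.9, 136, 149 and 135 CPM in Week-2 and 59.4, 57.1, 76.3 and 71.7 in Week-3 (-1.08 ± 0.11, adjusted p = 0.000873). The rats of each week agreed closely and the weeks did not overlap. Ptprb, the phosphatase that restrains Tek, fell by 0.79 ± 0.09 (adjusted p = 0.002). Kdr, the main receptor for VEGF, went from 459, 459.7, 450.1 and 581 to 379, 269.5, 333 and 251 CPM, a smaller step of -0.66 ± 0.14 (adjusted p = 0.0305) that was not called in 6 of the 8 fits that each left out 1 library, with an adjusted p of up to 0.101 without Week-2 replicate 4. Bmpr2 (chromosome 9, 66568074 to 66676494), the bone morphogenetic protein receptor in which inherited pulmonary arterial hypertension most often has its mutation, was at 281, 288, 237 and 272 CPM in Week-2 and 182, 150.3, 166 and 126 in Week-3. It was lower in each Week-3 rat, with a change of -0.78 ± 0.12 (adjusted p = 0.00843), and was the only called gene among 18 of the BMP and TGF-beta list, where DESeq2 and limma-voom also called 1 gene higher. Acvrl1, its type I partner in endothelium, changed by -0.54 (adjusted p = 0.0131), short of the fold threshold.

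Genes of the surface and junctions fell too. Thbd, thrombomodulin, the endothelial cofactor that turns thrombin towards activating protein C, was at 771, 777, 793 and 879.8 CPM and then 349.7, 332, 421 and 356 (-1.14 ± 0.10, adjusted p = 0.000501). Cdh5, the cadherin of endothelial junctions, was at 604, 603, 665 and 695 and then 347, 328, 346 and 312 (-0.94 ± 0.09, adjusted p = 0.000586). Within each week the 4 rats agreed closely for both genes, and the weeks did not overlap. Nostrin, which controls the place of endothelial nitric oxide synthase in the cell, fell by 1.46 ± 0.17 (adjusted p = 0.00168) and Sox7, a transcription factor of endothelium, with a change of -1.28 ± 0.19 (adjusted p = 0.00763). The synthase itself, Nos3, gave 41.2 ± 4.00 CPM (SD, n = 4) and 40.2 ± 4.47, a change of -0.03 (adjusted p = 0.9). Cav1, the main protein of caveolae, dropped from 1054, 1088, 1795 and 1607 to 839, 700.0, 825 and 802 CPM, but the Week-2 rats were spread and its call (-0.80 ± 0.17, adjusted p = 0.0267) was lost in 5 of the 8 fits with 1 library left out (up to 0.095 without Week-2 replicate 4). Cav1 was also the only called gene of 7 alveolar type 1 markers.

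Capillary genes behaved likewise: 11 of 19 fell and none rose, with a median change of -0.84. Cyp1a1, a xenobiotic oxidase of lung endothelium, changed the most but was uneven, at 24.9, 12.1, 123 and 72.0 CPM in Week-2 and 13.4, 3.36, 2.42 and 2.26 in Week-3. The weeks overlapped and the call (-3.43 ± 0.78, adjusted p = 0.035) was lost in 5 of the 8 fits, with an adjusted p of up to 0.11 without Week-3 replicate 4. Glp1r, the receptor for glucagon-like peptide 1, was at 65.5, 97.5, 90.5 and 94.4 and then 19.2, 24.3, 26.0 and 33.5 CPM (-1.75 ± 0.18, adjusted p = 0.00093). Aplnr, the apelin receptor of the general capillary cell, was at 173, 142, 140.1 and 161 and then 71.8, 60.7, 62.0 and 55.0 (-1.30 ± 0.11, adjusted p = 0.000459). Neither overlapped between weeks. Apln, its ligand, which marks the larger capillary cell of the alveolus, was at 119.6, 138, 188 and 219 and then 130.1, 165, 161 and 142 CPM and overlapped (-0.15, adjusted p = 0.648). The capillary count fell to 7 without Week-2 replicate 4.

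Of 15 arterial and Notch genes, 4 fell and Dll4 rose. Dll4, a Notch ligand of arterial and sprouting endothelium, was at 19.6, 15.1, 18.6 and 14.8 CPM in Week-2 and 30.7, 36.8, 31.2 and 26.1 in Week-3. The weeks did not overlap (0.88 ± 0.14, adjusted p = 0.00848), and even the Week-3 values stood far under those of the PBS lungs, 102 to 132 in Week-2 and 127 to 189 in Week-3. Of those that fell, Ackr3, a scavenging receptor for Cxcl12, changed by -1.04 ± 0.14 (adjusted p = 0.00437) and Fbln2, a fibulin of the vessel wall, with a change of -1.48 ± 0.24 (adjusted p = 0.00882). Gja4, a connexin of arteries, changed by -0.67 ± 0.13 in MCT and by -0.72 in PBS lungs, and Sema3g with a change of -0.63 ± 0.15 and -0.46, so that Gja4 was called in both, while the PBS change of Sema3g was under the fold threshold. Their MCT calls were lost in 3 and in all 8 of the fits with 1 library left out, with adjusted p of up to 0.0708 without Week-2 replicate 4 for Gja4 and 0.102 without Week-3 replicate 4 for Sema3g, and the arterial count fell to 2 in the lowest of these fits. Esm1, a secreted product of activated tip endothelium outside these lists, rose by 1.17 ± 0.23 (adjusted p = 0.0222, lost in 3 of the 8 fits, up to 0.0759 without Week-2 replicate 4) and by 1.12 in PBS lungs. Of 9 venous and lymphatic genes, Lyve1, the hyaluronan receptor of lymphatics, fell by 0.88 ± 0.18 (adjusted p = 0.0248). Vegfc, the growth factor that acts on lymphatics, fell with a change of -0.85 ± 0.17 (adjusted p = 0.0247). Each call was lost in 4 of the 8 fits (adjusted p up to 0.0834 without Week-2 replicate 4 for Lyve1 and 0.0873 without Week-2 replicate 4 for Vegfc). DESeq2 and limma-voom called 1 gene of this list higher.

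**Figure D1:**
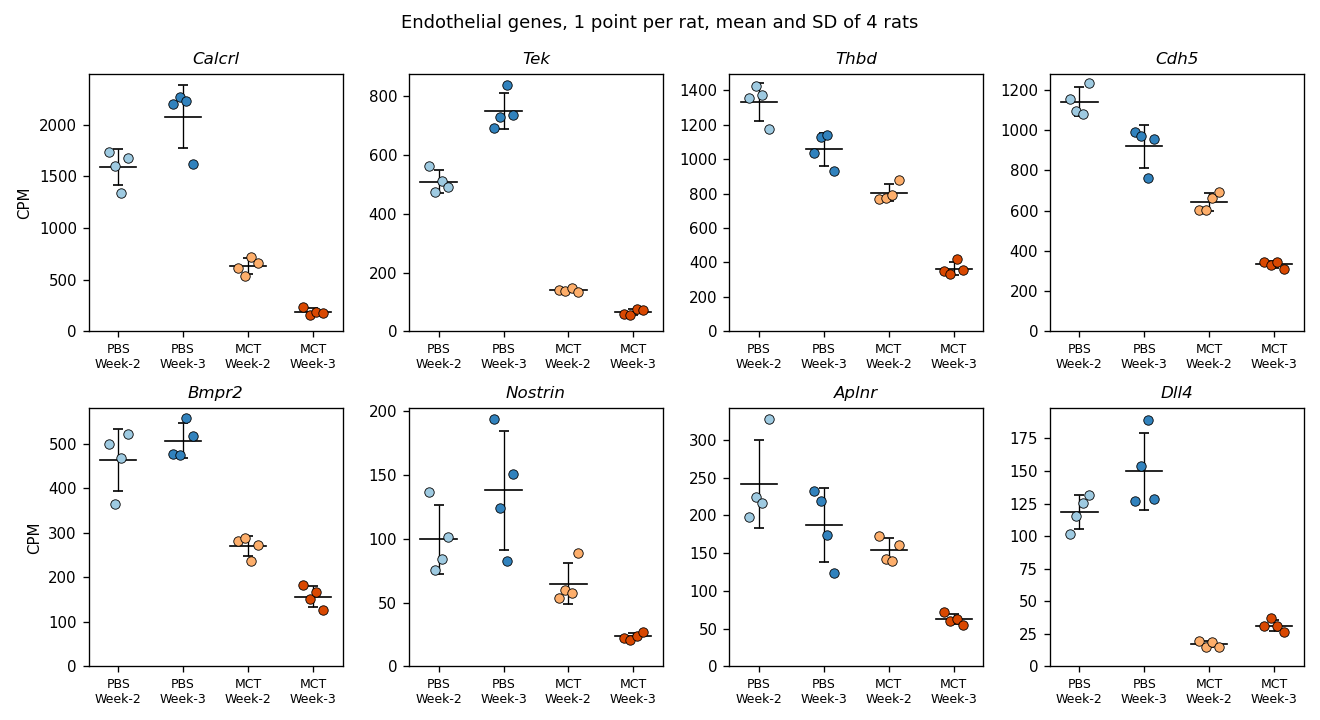
Levels of 8 endothelial genes in CPM (y axes, from 0) in the 4 rats of each group, PBS and MCT at Week-2 and Week-3; lines give the mean and bars the SD. For Calcrl, Tek, Thbd, Cdh5, Bmpr2, Nostrin and Aplnr all 4 MCT Week-3 points lie under all 4 MCT Week-2 points, and for Dll4 they lie above.

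Of 18 smooth muscle and pericyte genes 6 fell and none rose (by edgeR; DESeq2 and limma-voom called 1 higher), and the 6 were not the contractile ones. Gucy1a1 and Gucy1b1 encode the subunits of soluble guanylate cyclase, which nitric oxide activates to make cGMP. Gucy1a1 was at 166, 194, 212 and 229.7 CPM in Week-2 and 129, 104, 123 and 104 in Week-3 (-0.80 ± 0.12, adjusted p = 0.00729), and Gucy1b1 at 118, 123, 148 and 145 and 75.4, 67.2, 83.4 and 56.6 (-0.91 ± 0.13, adjusted p = 0.00568). Both subunits were lower in every Week-3 rat, whereas the Week-2 values overlapped those of the PBS Week-2 lungs (179 to 245 and 105 to 138 CPM). Pde5a, the phosphodiesterase that breaks down cGMP and the target of sildenafil, was at 131, 149, 90.8 and 152 and then 60.6, 53.8, 80.7 and 70.9 (-0.97 ± 0.18, adjusted p = 0.0164, but 0.0563 without Week-2 replicate 4). Pde3a, a phosphodiesterase of cAMP that cGMP inhibits, fell by 0.63 ± 0.13 (adjusted p = 0.025, up to 0.0854 without Week-3 replicate 4). The other members that fell were Cox4i2, a respiratory chain subunit of pericytes and smooth muscle, with a change of -1.15 ± 0.15 (adjusted p = 0.0038), and Aoc3, an amine oxidase of the vessel wall, with a change of -0.74 ± 0.15 (adjusted p = 0.0254, up to 0.0898 without Week-3 replicate 4). Among contractile and cytoskeletal genes, Cnn1 (calponin) gave 111, 86.3, 122 and 61.9 and then 51.8, 128, 126 and 108 CPM, with overlap. Des (desmin) gave 246, 183, 207 and 129.6 and then 186, 372, 320.4 and 296, a change of 0.62 ± 0.22 (adjusted p = 0.132). The count of 6 became 3 without Week-2 replicate 4.

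The largest falls outside the vessel lists were in genes of several kinds. Ntrk2, the receptor for brain-derived neurotrophic factor, was at 137, 151, 77.7 and 116 CPM in Week-2 and 19.0, 30.7, 24.3 and 26.1 in Week-3 (-2.26 ± 0.21, adjusted p = 0.000586). Kl, klotho, a co-receptor for fibroblast growth factor 23, was at 34.6, 39.6, 31.5 and 39.6 and then 11.5, 13, 11.8 and 12.1 (-1.58 ± 0.11, adjusted p = 0.000403). Scn7a, a sodium channel gene, was at 235, 247, 241 and 209.9 and then 104, 72.0, 71.9 and 66.1 (-1.57 ± 0.14, adjusted p = 0.000501). All 3 kept their call without each library in turn. The rule that named them required weeks that did not overlap, so their lack of overlap is no separate support. Samd12 fell by 1.96 ± 0.22 (adjusted p = 0.00156) and Cyp26b1, an enzyme that breaks down retinoic acid, with a change of -2.59 ± 0.45 (adjusted p = 0.0131). Cyp26b1 was at 28.3 to 94.8 CPM in Week-2 and 3.66 to 15.1 in Week-3, and in PBS lungs at 124 to 141 and 53.4 to 93.0.

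The falls in 4 further genes depended on single libraries. Kcnk2, a background potassium channel, fell by 2.34 ± 0.42 (adjusted p = 0.0151, up to 0.056 without Week-3 replicate 4), Cytl1 with a change of -2.12 ± 0.39 (0.0177, up to 0.0598 without Week-2 replicate 4), Cpvl, a carboxypeptidase of the lysosome list, with a change of -2.18 ± 0.45 (0.0254, up to 0.0874 without Week-2 replicate 4) and Slc7a10, an amino acid transporter, with a change of -1.71 ± 0.38 (0.0312, up to 0.0984 without Week-2 replicate 4). Klf4, a transcription factor found in quiescent endothelium and other cells, was the only called gene of 8 immediate-early and heat shock genes, with 166, 159.9, 162 and 154 CPM in Week-2 and 85.3, 95.8, 99.4 and 87.1 in Week-3 (-0.80 ± 0.08, adjusted p = 0.00112). Its weeks did not overlap. Of genes without a symbol, ENSRNOG00000003209 (chromosome 13, 89542378 to 89565813) and ENSRNOG00000015088 (chromosome 1, 236680098 to 236729412) fell by 1.64 ± 0.28 and 1.49 ± 0.18 (adjusted p = 0.0119 and 0.00216).

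**Figure D2:**
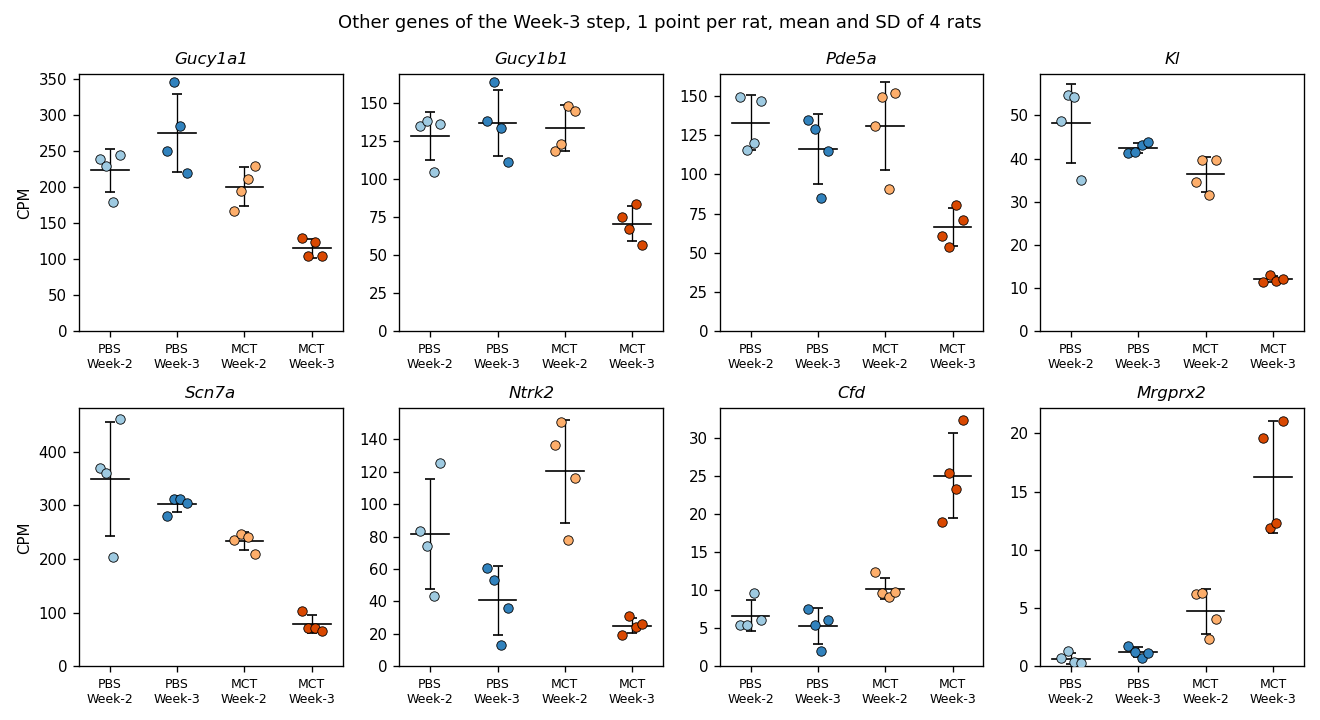
Levels of 8 further genes in CPM (y axes, from 0) in the 4 rats of each group, with mean and SD. The MCT Week-3 points lie under the MCT Week-2 points for Gucy1a1, Gucy1b1, Pde5a, Kl, Scn7a and Ntrk2, and above them for Cfd and Mrgprx2.

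Mitotic genes, which stood above PBS levels in MCT Week-2 lungs, came down towards them. Of 77 genes of mitosis and G2/M, 18 fell, none rose, 74 had a negative change and the median was -0.48. The summed level was 1908, 1736, 1793 and 1811 CPM in Week-2 and 1361, 1286, 1289 and 1212 in Week-3, without overlap. In PBS lungs it was 734, 742, 739 and 771 and then 1306, 874, 799 and 933, so that 1 PBS Week-3 rat reached the MCT Week-3 range. The count of 18 became 8 without Week-2 replicate 4, 9 without Week-3 replicate 4 and 26 without Week-3 replicate 1. It was 11 when the 16 libraries of both treatments shared one fit, and 6 with the replicate number as a block.

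Anln, anillin, a scaffold of the cleavage furrow, was at 30.7, 27.6, 27.1 and 29.0 CPM in Week-2 and 13.8, 15.8, 14.1 and 13.8 in Week-3 (-0.99 ± 0.10, adjusted p = 0.00108). Its 4 Week-3 values were nearly equal and lay between those of the MCT Week-2 and the PBS Week-2 lungs (5.46 to 7.48 CPM). Top2a, the topoisomerase that separates sister chromatids, was at 114, 98.2, 101 and 107 and then 69.0, 59.0, 62.3 and 57.9 (-0.75 ± 0.09, adjusted p = 0.00178). Prc1, which bundles the microtubules of the midzone, was at 77.3, 74.1, 68.8 and 66.5 and then 48.0, 51.4, 44.4 and 44.0 (-0.61 ± 0.09, adjusted p = 0.00679). Ccnb1, cyclin B1, which drives entry into mitosis, was at 22.7, 18.7, 23.4 and 23.6 and then 14.9, 12.7, 15.7 and 12 (-0.67 ± 0.13, adjusted p = 0.0211). No value of Week-3 reached any of Week-2 for these 4 genes. With 1 library left out, Prc1 lost its call in 3 of the 8 fits, all at an adjusted p of at most 0.0331 without Week-3 replicate 4, so that the fold threshold decided, and Ccnb1 lost it in 4, with an adjusted p of up to 0.08 without Week-2 replicate 4, and in the fit of 16 libraries (0.062). Depdc1 and Pbk, other genes of dividing cells, fell by 0.95 ± 0.23 and 0.92 ± 0.20 (adjusted p = 0.0426 and 0.0306), lost in 7 and 6 of the 8 fits (up to 0.13 without Week-3 replicate 4 for Depdc1 and 0.0873 without Week-2 replicate 4 for Pbk) and in the fit of 16 libraries (0.0919 and 0.0773).

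No S-phase gene was called by edgeR, although their summed level, too, was lower in every Week-3 lung than in any Week-2 lung. Of 55 genes of DNA replication and S phase, none was called by edgeR. At an unadjusted p under 0.05 with the fold threshold kept, 2 were lower, and DESeq2 and limma-voom called 2 and 4 lower. The summed level was 1242, 1176, 1071 and 1148 CPM in Week-2 and 1035, 1014, 934 and 903 in Week-3. The median change was -0.23 and 50 of the 55 were negative. Rrm2, a subunit of ribonucleotide reductase, gave 26.5, 19.5, 17.4 and 18.2 CPM in Week-2 and 13.8, 11.7, 15.6 and 11.5 in Week-3 (-0.63 ± 0.16, adjusted p = 0.055). Mcm2, of the replicative helicase, gave 48.9, 44.9, 37.7 and 41.4 and 37.4, 41.4, 38.0 and 37.6 (-0.16, adjusted p = 0.378). Without Week-3 replicate 1, 6 of the list were called lower. The difference between the mitotic and the S-phase list was not tested.

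Genes of late cell cycle share short promoter elements, and the promoters of 4 that fell are printed because they show these in different arrangements. Sequences are from RefSeq on GRCr8, 250 bases before to 50 after the start, with CCAAT boxes (CCAAT or ATTGG) and the cell cycle genes homology region (TTTGAA or TTCAAA) in capitals on either strand.
Anln (GRCr8 chr8:29197464-29197763, minus strand): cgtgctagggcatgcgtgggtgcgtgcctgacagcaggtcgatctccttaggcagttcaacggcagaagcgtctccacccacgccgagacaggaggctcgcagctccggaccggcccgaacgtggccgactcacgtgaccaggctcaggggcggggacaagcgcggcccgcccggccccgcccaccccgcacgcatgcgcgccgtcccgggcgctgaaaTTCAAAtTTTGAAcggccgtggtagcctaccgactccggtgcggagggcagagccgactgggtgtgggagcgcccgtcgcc
Ccnb1 (GRCr8 chr2:33655176-33655475, minus strand): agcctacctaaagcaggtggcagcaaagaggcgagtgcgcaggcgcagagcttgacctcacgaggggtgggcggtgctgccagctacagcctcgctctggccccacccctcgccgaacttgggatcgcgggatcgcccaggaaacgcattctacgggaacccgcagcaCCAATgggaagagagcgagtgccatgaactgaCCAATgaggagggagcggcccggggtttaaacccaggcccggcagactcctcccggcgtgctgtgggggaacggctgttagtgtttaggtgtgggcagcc
Prc1 (GRCr8 chr1:143659231-143659530, plus strand): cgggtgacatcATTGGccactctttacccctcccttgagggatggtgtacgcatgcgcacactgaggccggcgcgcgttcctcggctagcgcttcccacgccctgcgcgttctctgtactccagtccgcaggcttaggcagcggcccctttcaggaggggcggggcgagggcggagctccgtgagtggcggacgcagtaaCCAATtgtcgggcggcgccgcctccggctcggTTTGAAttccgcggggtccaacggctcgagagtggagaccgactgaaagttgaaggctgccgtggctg
Top2a (GRCr8 chr10:84473044-84473343, minus strand): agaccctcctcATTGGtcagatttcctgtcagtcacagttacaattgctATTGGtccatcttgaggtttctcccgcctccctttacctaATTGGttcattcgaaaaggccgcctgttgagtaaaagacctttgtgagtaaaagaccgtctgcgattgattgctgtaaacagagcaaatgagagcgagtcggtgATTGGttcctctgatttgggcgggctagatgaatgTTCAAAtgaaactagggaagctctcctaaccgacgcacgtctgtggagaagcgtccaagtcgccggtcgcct
Anln had 2 matches to the homology region and none to the CCAAT box. Ccnb1 had 2 matches to the CCAAT box and none to the homology region as spelled above, and other spellings were not searched. Prc1 had 2 and 1 matches, and Top2a had 4 and 1. Of 67 members of the mitosis list with a promoter in the table, 64.2% held a CCAAT box, 67.2% the homology region and 47.8% both, against 37.7%, 18.1% and 7.25% of all 27457 promoters. Both elements were in 46.7% of the 15 that fell and 48.1% of the 52 that were not called. A match of letters is not evidence of binding.

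**Figure D3:**
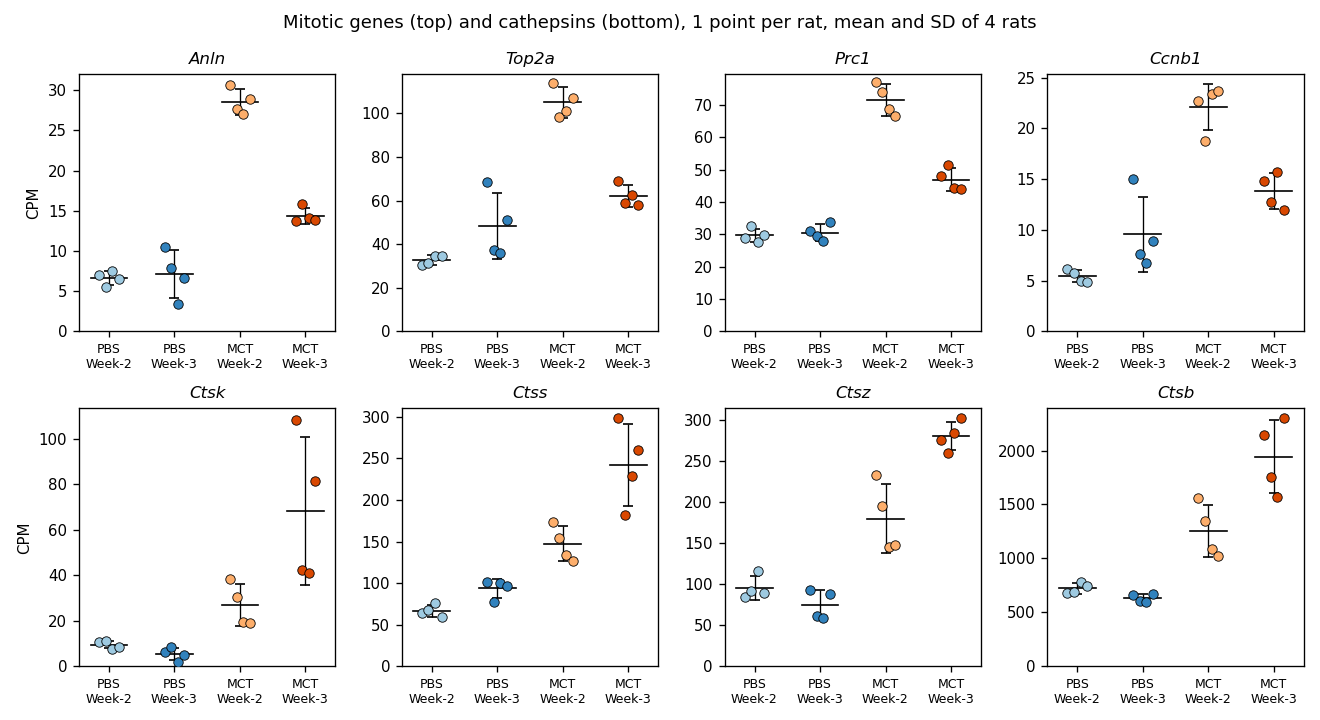
Levels of 4 mitotic genes (top) and 4 cathepsins (bottom) in CPM (y axes, from 0) in the 4 rats of each group, with mean and SD. In the MCT lungs the mitotic genes were lower and the cathepsins higher in every Week-3 rat than in any Week-2 rat.

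The genes that rose included cathepsins, the proteases of the lysosome. Of 30 lysosomal genes 4 rose and 1, Cpvl, fell, with 27 changes positive and a median of 0.50. Ctsk, cathepsin K, which cleaves collagen and elastin, was at 38.4, 30.5, 19.7 and 19.0 CPM in Week-2 and 108, 42.2, 41.1 and 81.7 in Week-3 (1.35 ± 0.33, adjusted p = 0.0474). Ctss, cathepsin S of antigen-presenting cells, was at 173, 155, 134 and 127 and then 298, 182, 229 and 260.1 (0.72 ± 0.15, adjusted p = 0.0279). The weeks did not overlap, but Week-2 replicates 1 and 2 stood above replicates 3 and 4 for both. Ctsz and Ctsb rose by 0.64 ± 0.15 and 0.63 ± 0.16 (adjusted p = 0.0397 and 0.0499). Each of the 4 calls was lost in 5 or 6 of the 8 fits with 1 library left out, with adjusted p of up to 0.146 without Week-2 replicate 4 for Ctsk, 0.104 without Week-2 replicate 4 for Ctss, 0.123 without Week-2 replicate 4 for Ctsz and 0.152 without Week-2 replicate 4 for Ctsb. The list gave no call of a rise without Week-2 replicates 3 or 4 or Week-3 replicate 4, 2 without Week-2 replicate 2 or Week-3 replicate 2, and 11 without Week-2 replicate 1.

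Macrophage markers moved the same way with few calls. Of 38 measured, 3 rose and none fell, and 36 changes were positive with a median of 0.46. Lilrb4, an inhibitory receptor of myeloid cells, was at 73.6, 69.9, 56.2 and 39.6 CPM in Week-2 and 226, 83.0, 108 and 178 in Week-3 (1.31 ± 0.30, adjusted p = 0.035), with no overlap but one Week-3 rat close to Week-2. Cd14, the co-receptor for lipopolysaccharide, was at 46.4, 58.6, 40.6 and 44.3 and then 81.6, 66.4, 77.8 and 79.1 (0.69 ± 0.12, adjusted p = 0.0161), and Clec10a, a lectin of dendritic cells and macrophages, rose by 0.85 ± 0.21 (adjusted p = 0.0472). Their calls were lost in 4, 2 and 6 of the 8 fits, with adjusted p of up to 0.113 without Week-2 replicate 4 for Lilrb4, 0.0635 without Week-2 replicate 4 for Cd14 and 0.141 without Week-2 replicate 4 for Clec10a, and the list had 1 call without Week-2 replicate 3 and none without Week-2 or Week-3 replicate 4. Spp1, osteopontin, gave 279, 197, 79.0 and 59.5 and then 397, 474, 177 and 381 (1.22 ± 0.46, adjusted p = 0.144). The summed level of the 38 markers was 4531, 3961, 2686 and 2868 CPM in Week-2 and 6127, 4283, 4943 and 5377 in Week-3, which overlapped, and the share that such a shift had in the lysosomal rise was not tested. The summed neutrophil list was 1456, 1287, 699 and 527 and then 1754, 2381, 1546 and 1609, again with Week-2 replicates 1 and 2 above 3 and 4. None of its 10 genes was called by edgeR. At an unadjusted p under 0.05 with the fold threshold kept, 3 were higher, and DESeq2 called 1 higher.

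Hmox1, the heme-degrading enzyme of macrophages and stressed cells, was at 176, 126, 80.7 and 100.3 CPM in Week-2 and 203, 223, 241 and 270.1 in Week-3 (0.96 ± 0.21, adjusted p = 0.0302, up to 0.106 without Week-2 replicate 4). Cfd, complement factor D, was at 12.3, 9.62, 9.12 and 9.75 and then 18.9, 25.3, 23.3 and 32.3 (1.30 ± 0.17, adjusted p = 0.00437), and Vwa1, a matrix protein, at 24.3, 18.8, 19.2 and 14.6 and then 32.2, 37.9, 43.0 and 58.5 (1.16 ± 0.20, adjusted p = 0.0126). The weeks did not overlap in any of the 3, which the rule that named Cfd and Vwa1 had required. Cfd and Vwa1 kept their call without each library. Mrgprx2, a mast cell receptor for basic peptides, was at 6.22, 6.30, 2.33 and 4.03 and then 19.6, 11.9, 12.3 and 21.1 (1.78 ± 0.32, adjusted p = 0.0158, up to 0.0627 without Week-2 replicate 4), the largest rise of a gene with a symbol whose weeks did not overlap. Slc18a2, the transporter that loads histamine and serotonin into granules, rose by 0.79 ± 0.19 (adjusted p = 0.0455, up to 0.127 without Week-3 replicate 4). These were 2 of 10 mast cell genes, and Kit, the growth factor receptor of mast cells, gave -0.08 (adjusted p = 0.783), although endothelium carries Kit as well.

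Further rises were those of Kng2, a kininogen, by 1.38 ± 0.26 (adjusted p = 0.0194, up to 0.0696 without Week-2 replicate 4), Abcb1b, a drug exporter, by 1.01 ± 0.24 (0.0411, up to 0.116 without Week-2 replicate 4), and Sphk1, the kinase that makes sphingosine 1-phosphate, by 0.96 ± 0.23 (0.0444, up to 0.134 without Week-3 replicate 4). Ccdc88b rose by 0.89 ± 0.18 (0.0248, up to 0.0873 without Week-2 replicate 4). Of 34 T and NK cell genes, Lat, an adaptor of the T cell receptor that mast cells and platelets also use, rose by 0.91 ± 0.16 (0.0131, up to 0.0523 without Week-3 replicate 4), Cd6 rose by 0.79 ± 0.20 (0.049, up to 0.146 without Week-2 replicate 4) and Gimap4 fell by 0.72 ± 0.14 (0.0218, up to 0.0748 without Week-3 replicate 4). All of these calls were made by edgeR and each was lost without at least 1 library. Abcb1b, Sphk1 and Cd6 were also not called in the fit of 16 libraries (adjusted p = 0.191, 0.0536 and 0.27). Inmt, a methyltransferase, rose by 1.68 ± 0.40 and Fmo1, a flavin oxidase, fell by 1.06 ± 0.22 (adjusted p = 0.0443 and 0.0259, up to 0.131 without Week-3 replicate 4 and 0.0909 without Week-2 replicate 4), 2 of the 5 called among 25 detoxification genes beside Cyp1a1, Cyp26b1 and Hmox1.

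The matrix list was mixed. Of 69 genes 7 fell, 2 rose and the median change was -0.09. The genes that fell included parts of basement membrane and elastic fibre: besides Fbln2 they were Lamc3, a laminin chain, at 11.2, 13.3, 15.5 and 15.8 CPM in Week-2 and 3.76, 4.32, 7.39 and 4.39 in Week-3 (-1.48 ± 0.23, adjusted p = 0.00846), Spon2, with a change of -1.22 ± 0.19 (0.00835), Vtn, vitronectin, with a change of -0.95 ± 0.16 (0.0122), and Nid2, a nidogen, with a change of -0.81 ± 0.13 (0.00869). Lama2, another laminin chain, fell by 0.69 ± 0.13 (0.0209, up to 0.0736 without Week-2 replicate 4). Fbln5, which assembles elastic fibres, fell with a change of -0.61 ± 0.14 (0.0343, up to 0.117 without Week-2 replicate 4). The same list had 16 lower and none higher in the PBS step, where 3.82% of the genes with a symbol fell and 8.1% rose. That count of 16 became 1 without PBS Week-2 replicate 3 and 6 with the replicate number as a block. In PBS lungs the changes of Lamc3, Spon2, Vtn and Nid2 were -0.63, -0.70, -0.47 and -0.49. Timp1, an inhibitor of matrix proteases, was at 71.8, 66.2, 68.3 and 62.0 and then 83.6, 113, 92.2 and 113 CPM (0.59 ± 0.11, adjusted p = 0.0202, up to 0.0805 without Week-2 replicate 4), and Plau, urokinase, rose by 0.59 ± 0.15 (0.0472, up to 0.148 without Week-3 replicate 4). Without Week-2 replicate 1, 11 matrix genes fell. Plau, Kng2 and Thbd were the called genes among 18 of hemostasis, 2 higher and 1 lower.

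In the type 2 list of 13 genes, 1 (Clec10a) rose and 2 fell. Il33, an alarm signal of injured barrier cells, was at 182, 174, 241 and 185 CPM and then 160.5, 113, 112 and 132 (-0.59 ± 0.14, adjusted p = 0.0424, up to 0.118 without Week-3 replicate 4), while PBS lungs ran from 341 to 492 in Week-2 and from 463 to 649 in Week-3. It was also the only called gene among 17 chemokines, cytokines and alarm signals, where DESeq2 called 1 higher. Chit1, a chitinase, fell by 0.81 ± 0.19 (0.0399, up to 0.112 without Week-2 replicate 4). No gene of the lists for interferon response (38), B cells (9), alveolar type 2 cells (9), airway epithelium (13), glycolysis (7), clock (6), p53 targets (12) or mitochondrial transcripts (6) was called by edgeR. At an unadjusted p under 0.05 with the fold threshold kept, the interferon list had 3 members lower and the mitochondrial list 1 lower. The airway list had 2 higher, the glycolysis list 2 higher and the alveolar type 2 list 1 higher by that rule. The B cell, clock and p53 lists had none. Their log2 changes ran from -0.34 to 0.41, -0.41 to 0.52 and -0.49 to 0.24. All lay within the fold threshold, so this rule could count none of them, whatever the p. DESeq2 called 1 interferon and 1 mitochondrial gene lower, and 1 alveolar type 2, 1 airway and 2 glycolysis genes higher. Of 15 erythroid and haemoglobin genes, 1 fell by edgeR: Add2, a cytoskeletal adducin, at 3.75, 3.29, 5.29 and 4.94 CPM in Week-2 and 1.13, 1.62, 1.15 and 0.851 in Week-3 (-1.85 ± 0.29, adjusted p = 0.00843), without overlap. Across the 15 the median change was -0.92, with 12 negative and 3 positive. At an unadjusted p under 0.05 with the fold threshold kept, 8 were lower and none higher. Of all 16263 genes tested, 628 were lower and 775 higher by that rule. The share among genes with a symbol alone was not computed for it. DESeq2 called 3 lower and limma-voom 5, while edgeR with the replicate number as a block called none. In the PBS step the median was -0.78, with 8 lower and 1 higher at an unadjusted p under 0.05 with the fold threshold kept. Of all 15940 genes tested there, 743 were lower and 781 higher by that rule. No member was called in the difference of the steps. The summed haemoglobin level was 404, 483, 1099 and 452 CPM in Week-2 and 522, 367, 172 and 170.0 in Week-3, with overlap. The source of these transcripts was not tested.

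**Figure D4:**
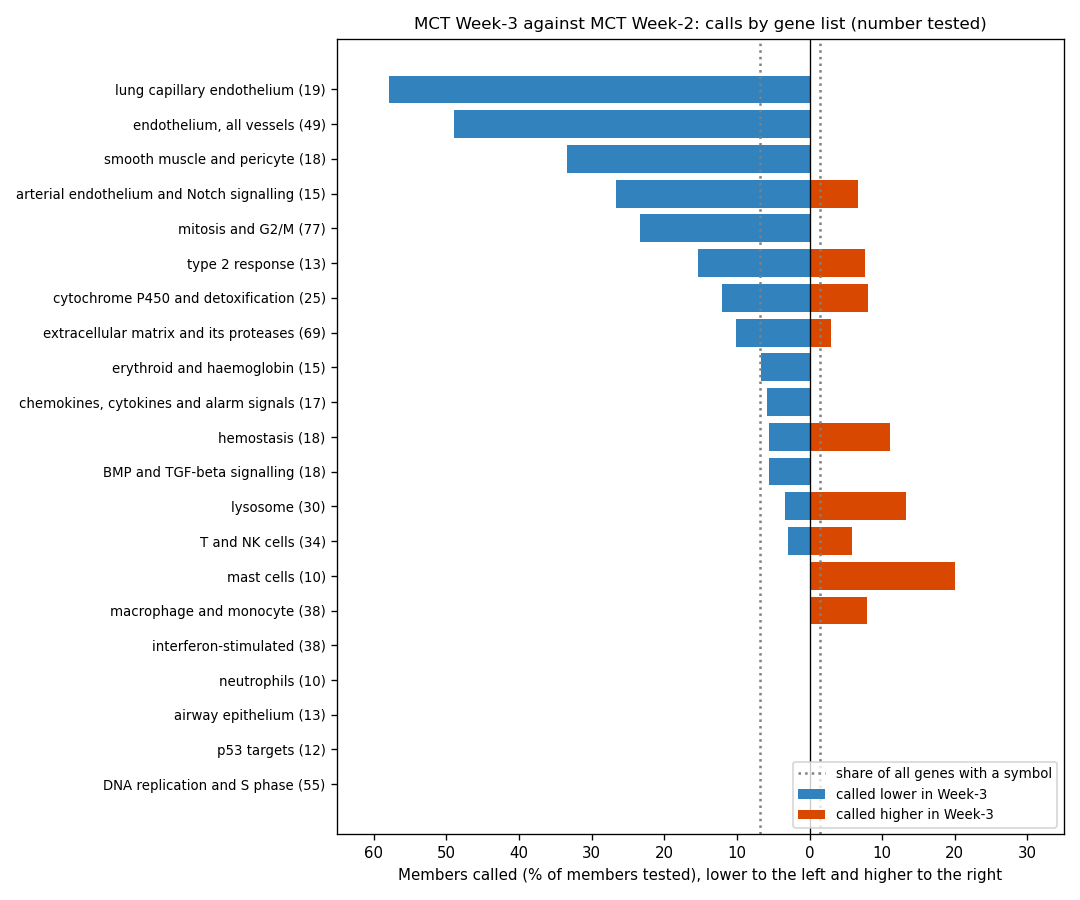
Share of the tested members of each gene list (number in brackets, lists of 10 or more) that was called lower (left) or higher (right) in MCT Week-3 against MCT Week-2. Dotted lines mark the shares over all genes with a symbol, 6.81% lower and 1.5% higher; the capillary (11 of 19) and endothelial (24 of 49) lists reach furthest to the left.

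The PBS lungs changed as well between the same weeks. Of 15940 genes tested, 421 rose (2.64%) and 368 fell (2.31%). Of the interferon list 22 of 38 rose, of T and NK cell genes 13 of 34, of B cell genes 4 of 9 and of mitochondrial transcripts 5 of 6, against 8.1% of the 3273 tested genes with a symbol. Of mitosis genes 7 of 77 rose, a share near that one, and 20 did in the fit of 16 libraries. The PBS Week-3 rats differed among themselves: the summed interferon level was 2709.5, 4760.3, 4765 and 7365 CPM, after 2409 to 2701 in Week-2. The PBS calls also rested on few rats, since without Week-2 replicates 2, 3 or 4 they numbered 11, 16 and 13 in all and none was left in the interferon list without Week-2 replicate 2. Without Week-3 replicate 2, 238 genes rose, without replicate 3 195 rose and 199 fell, and without replicate 4 657 rose.

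The step in MCT lungs was therefore set against the step in PBS lungs in one model of all 16 libraries. The steps differed in 2834 of 16893 genes (16.8%), 1584 with the lower (9.38%) and 1250 with the higher change in MCT (7.4%). Of the genes that fell in MCT lungs, 183 of 302 also had the lower step here, and of those that rose 105 of 179 had the higher. Since the MCT step is part of this difference, that overlap is not a separate test. The lower calls numbered 858 and the higher 647 without MCT Week-3 replicate 4, and 1003 and 723 without MCT Week-2 replicate 4. Without MCT Week-3 replicate 2 the lower numbered 997, without MCT Week-3 replicate 3 the higher 797, without PBS Week-2 replicate 2 the higher 818, and without PBS Week-2 replicate 3 they were 981 and 760.

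Of the genes with a symbol, 26.1% had the lower and 8.89% the higher step in MCT lungs. Of the 49 endothelial genes, 27 had the lower step. For Calcrl the difference of steps was -2.13 (adjusted p = 2.87e-05), for Tek -1.64 (adjusted p = 2.87e-05), for Nostrin -1.93 (adjusted p = 0.00403), for Glp1r -1.35 (adjusted p = 0.00403), for Bmpr2 -0.91 (adjusted p = 0.00574) and for Thbd -0.81 (adjusted p = 0.00403). For Plvap, whose product spans the pores of fenestrated endothelium, it was -0.42 (adjusted p = 0.144), its PBS step being -0.55. Gja4 and Sema3g gave 0.04 (adjusted p = 0.889) and -0.17 (adjusted p = 0.559). Of the smooth muscle and pericyte genes Gucy1a1 gave -1.10 (adjusted p = 0.0052), Gucy1b1 -1.01 (adjusted p = 0.00574) and Pde5a -0.78 (adjusted p = 0.0394), the last not called in 10 of the 16 fits with 1 library left out (adjusted p up to 0.0902 without MCT Week-3 replicate 2).

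For mitosis 42 of 77 genes differed, all lower in the MCT step, with a PBS step in the other direction: the list's median change was -0.48 in MCT and 0.44 in PBS lungs. Anln gave -1.10 (adjusted p = 0.0265), not called in 4 of the 16 fits with 1 library left out (up to 0.058 without PBS Week-2 replicate 2), Top2a -1.32 (adjusted p = 0.00403), Ccnb1 -1.49 (adjusted p = 0.006) and Prc1 -0.65 (adjusted p = 0.0068). For the interferon list 24 of 38 differed, with medians of -0.25 in MCT and 0.94 in PBS lungs. Of 30 lysosomal genes 10 had the higher and 2 the lower change in MCT. Ctsk gave 2.21 (adjusted p = 0.0129), Ctsz 0.99 (adjusted p = 0.0138) and Ctsb 0.82 (adjusted p = 0.0109), whereas Ctss, which changed by 0.49 in PBS lungs, gave 0.23 (adjusted p = 0.459). Of the other genes that rose, Cfd gave 1.62 (adjusted p = 0.0176), Vwa1 1.68 (adjusted p = 0.00403) and Kng2 1.61 (adjusted p = 0.0126), and Mrgprx2 gave 0.92 (adjusted p = 0.324).

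The largest differences of steps, among genes with a symbol and a mean of at least 5 CPM in a group, included genes not called in the MCT step. Tsc22d4 (2.17, adjusted p = 0.0352), Hmgn1 (2.13, adjusted p = 0.0367) and Naa38 (2.03, adjusted p = 0.00844) were of this kind, and Tsc22d4 was high in 1 MCT Week-3 rat, at 4.30, 4.63, 3.92 and 20.2 CPM. Ctsk, described above, and Col15a1, a basement membrane collagen, made up the 5 largest. Col15a1 has 2 gene entries, between which reads may have been split, and the difference was 2.04 (adjusted p = 0.00904) for ENSRNOG00000039197 and 1.07 (adjusted p = 0.125) for ENSRNOG00000060381. With 1 library left out, the calls of Tsc22d4 and Hmgn1 were lost in 8 and 11 of the 16 fits (up to 0.0915 without MCT Week-3 replicate 4 and 0.0986 without MCT Week-3 replicate 2). At the other end were LOC690836 (-2.95, adjusted p = 0.0268), Cyp1a1 (-2.90, adjusted p = 0.0442), Tmem229a (-2.33, adjusted p = 0.0224), MGC108823 (-2.27, adjusted p = 0.00403) and Lepr, the leptin receptor (-2.21, adjusted p = 0.0109). The calls of Cyp1a1, LOC690836 and Tmem229a were lost in 12, 5 and 2 of the 16 fits (up to 0.113 without MCT Week-2 replicate 3, and 0.0627 and 0.054 without MCT Week-2 replicate 4). In MCT lungs Lepr was at 2.06 to 4.86 CPM in Week-2 and 0.901 to 2.26 in Week-3, and in PBS lungs at 4.39 to 6.38 and 5.18 to 14.0.

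**Figure D5:**
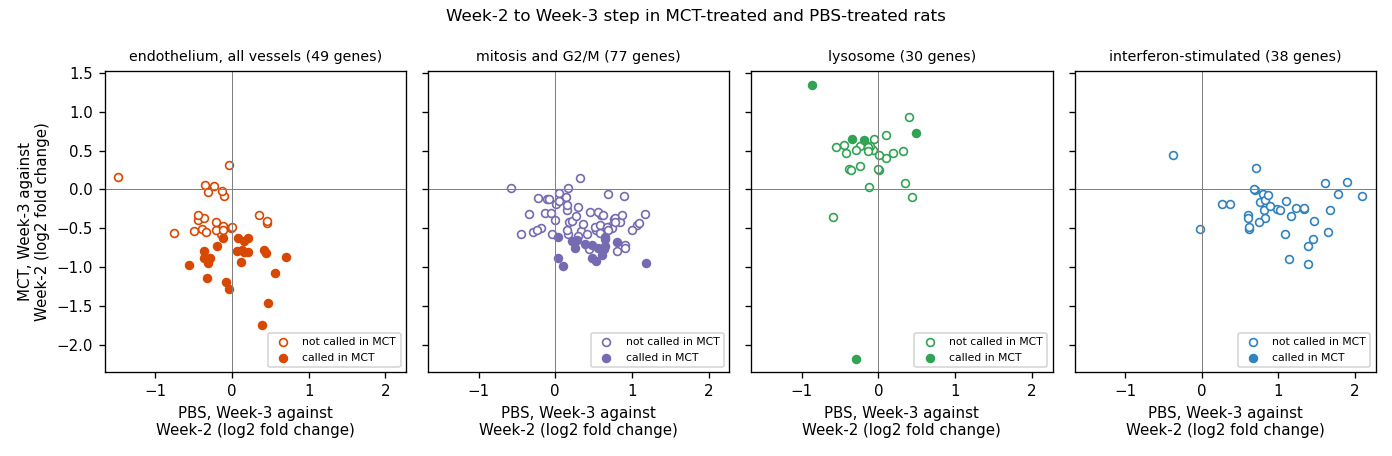
Each point is a gene; the x axis is its log2 fold change between Week-3 and Week-2 in PBS lungs, the y axis the same in MCT lungs, for 4 gene lists, filled where called in MCT. Endothelial points spread downwards around 0 on the x axis (24 of 49 filled), mitotic points lie mostly below 0 in MCT and above 0 in PBS, lysosomal points lie mostly above 0 in MCT and interferon points mostly to the right.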

How the data were processed

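Lung RNA of 24 rats was sequenced from poly(A) libraries. The deposited table holds raw read counts per gene. Per the labels and the study's methods, the authors aligned reads with HISAT2 2.0.5, counted them with featureCounts 2.0.3 and tested them with DESeq2 1.32.0. The strand setting of the counting and the annotation release are not given in the sources used here. Gene coordinates are those in the table (Rnor_6.0), and no column of another sample was present (0 columns).

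Counts of the 8 MCT libraries of Week-2 and Week-3 were filtered with filterByExpr, scaled by TMM and tested with edgeR 4.0.16 (glmQLFit, glmQLFTest) in R 4.3.3, with Benjamini-Hochberg adjustment over all genes tested. The call required a fold change beyond 1.5 besides an adjusted p below 0.05, as in the study. The PBS libraries were fitted alike. The difference of the steps was the interaction in 16 libraries, called at an adjusted p under 0.05. The scripts were tested on simulated data. Alternatives were RLE scaling, other filters, DESeq2 1.42.0, voom of limma 3.58.1 with quality weights, other sets of libraries, the replicate number as a block and each library left out.

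Symbols came from the names in the study's supplementary list of genes differing between MCT and PBS, of which a shortened copy was used, so genes outside it keep their ID and gene lists are partial. Each list is given by counts and medians with no list test, and summed levels carry no p. Members and lists were chosen with earlier results of these data known. Genes were named by a rule: the 12 largest rises and falls whose weeks do not overlap, up to 3 called members of each list, all called members of lists with at most 5, and the 5 largest differences of steps each way, with at least 5 CPM. Ramp2, Ptprb, Top2a, Prc1, Ccnb1, Add2, Plvap, Esm1, genes without a symbol and genes named as not called were chosen after their values were seen. The lists reported are those of vessels, mitosis, replication, lysosome, immune cells, epithelia, matrix, hemostasis and the other groups in the text.

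Depth was 28357609 to 31940636 counted reads, which limits precision little beside the spread between rats. Across genes, the correlation of a library's log2 deviation from the gene's median with log2 gene length was also computed. It was 0.036, -0.002, -0.094 and -0.035 in MCT Week-2 lungs and -0.076, -0.164, -0.113 and -0.108 in MCT Week-3 lungs, which overlapped. In PBS lungs its means were 0.036 and 0.056. Longer genes thus read somewhat lower in MCT Week-3 lungs, and the part of this in the changes was not tested. Intervals between rats were not computed from reads. Replicates of a group differed beyond counting noise (chi-square per degree of freedom 23.6 to 80.6), so none was treated as a duplicate. Nothing in the labels says that rats of the same number were linked. One result that the naming rule selected is not reported here.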

Additional observations from a re-analysis of the deposited data

Results flagged for a closer look

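The steps of the MCT and the PBS lungs between Week-2 and Week-3 differed (edgeR test of the interaction, adjusted p under 0.05) in 62 of the genes named in the report. The log2 difference, MCT minus PBS, is given for each after its name. Not all of these calls held in each of the 16 fits with 1 library left out. For instance, those of Fbln2 and Gimap4 were lost in 9 fits, that of Cpvl in 8 and those of Timp1 and Sphk1 in 4. Those of Tek, Thbd, Nostrin and Kl were kept in all 16. Among the genes with the lower step in MCT lungs were those of endothelium in general: Calcrl (-2.13), Ramp2 (-1.02), Tek (-1.64), Ptprb (-0.86), Kdr (-0.82), Bmpr2 (-0.91), Thbd (-0.81), Cdh5 (-0.63), Nostrin (-1.93), Sox7 (-1.24) and Cav1 (-0.97). Capillary, arterial and lymphatic genes were Glp1r (-1.35), Aplnr (-0.94), Cyp1a1 (-2.90), Ackr3 (-1.04), Fbln2 (-0.90), Lyve1 (-1.12) and Vegfc (-0.94). Genes of smooth muscle and pericytes were Gucy1a1 (-1.10), Gucy1b1 (-1.01), Pde5a (-0.78), Cox4i2 (-1.38) and Aoc3 (-0.96). Mitotic genes were Anln (-1.10), Top2a (-1.32), Prc1 (-0.65), Ccnb1 (-1.49), Depdc1 (-2.13) and Pbk (-1.45). Of other kinds were Kl (-1.41), Scn7a (-1.36), Kcnk2 (-2.07), Samd12 (-2.09), Gimap4 (-0.65), Cpvl (-1.88), Cyp26b1 (-1.68), Cytl1 (-1.61), Fmo1 (-1.42), Il33 (-1.10), Lepr (-2.21), Tmem229a (-2.33), MGC108823 (-2.27) and LOC690836 (-2.95), and the genes without a symbol ENSRNOG00000003209 (-1.73) and ENSRNOG00000015088 (-1.49).

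The higher step in MCT lungs was that of the cathepsins Ctsk (2.21), Ctsb (0.82) and Ctsz (0.99). It was also that of Hmox1 (1.28), Clec10a (1.30), Timp1 (0.57), Sphk1 (1.38), Vwa1 (1.68), Kng2 (1.61), Cfd (1.62) and Ccdc88b (1.48). In Naa38 (2.03), Tsc22d4 (2.17), Hmgn1 (2.13) and Col15a1 (2.04 for ENSRNOG00000039197) the MCT step alone was not called. The genes without a symbol ENSRNOG00000024181 (6.34) and ENSRNOG00000028982 (4.84) had the largest differences of those named. These genes were named for their change in MCT lungs or for this difference, so their number says nothing of the share among all genes.

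In some groups of 4 rats, 1 rat lay far from the other 3, by the gap to its nearest neighbour relative to the range of the group (Dixon's criterion at 95%). This held for 23 of 444 groups examined, and chance alone gives about 1 in 20. In MCT Week-2 lungs the rats apart were replicate 2 for Abcb1b (188 CPM) and Clec10a (55.4), replicate 3 for Il33 (241) and for the summed haemoglobin genes (1099), and replicate 4 for Kdr (581). In MCT Week-3 lungs they were replicate 1 for Cyp1a1 (13.4 CPM) and Scn7a (104), replicate 2 for Anln (15.8), Mcm2 (41.4) and Ramp2 (18.2), replicate 3 for the summed interferon list (2735), and replicate 4 for Tsc22d4 (20.2).

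In PBS Week-2 lungs replicate 3 was apart for Gucy1b1 (105 CPM), Cfd (9.61) and the summed mitochondrial transcripts (5959.7), and replicate 4 for Nos3 (31.1). In PBS Week-3 lungs replicate 1 was apart for Cd6 (21.5 CPM), replicate 2 for Kng2 (13.7) and the summed smooth muscle list (2057), replicate 3 for Cdh5 (760.2), and replicate 4 for Apln (104), Calcrl (1623) and the summed capillary list (3608).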

How the results depend on the processing

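Under RLE scaling, both other filters, robust dispersion and the 16-library fit, each total of called genes in a comparison stayed within 1.5 times its value. Counts within gene lists moved more, in the 16-library fit from 18 to 11 for the fall of mitosis genes in MCT lungs, and in the PBS step from 7 to 20 for their rise and from 2 to 7 for the fall of erythroid genes. In the MCT step, 179 higher and 302 lower became 456 higher with DESeq2, and 403 and 455 with limma-voom. They became 775 and 628 at an unadjusted p under 0.05 with the fold threshold kept. At an adjusted p under 0.05 without the fold threshold they became 282 and 467. In the PBS step, 421 and 368 became 781 and 743 at an unadjusted p with the fold threshold kept. At an adjusted p without the fold threshold they became 924 and 719. In the difference of steps, 1250 and 1584 became 2564 and 2907 at an unadjusted p.

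With all 24 libraries in one fit, the calls nearly vanished: 2 higher and 60 lower in the MCT step, 0 and 0 in the PBS step (506 and 387 at an unadjusted p under 0.05), and 3 and 9 in the difference, all by edgeR. PBS Week-1 replicates 1 and 3 stood apart, with 19804731 and 20509197 counted reads against at least 28357609 in the other libraries, and 14706 and 12491 genes with 10 or more counts. Without these libraries, a choice made after seeing the data, the 22-library fit gave 90 and 229, 395 and 381, and 637 and 790. Neither library is part of the comparisons reported.

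With 1 library left out, the MCT step gave 30 to 393 higher and 142 to 426 lower, the PBS step 5 to 657 and 6 to 530, and the difference 647 to 1725 and 858 to 2190. Of 72 genes named by rule, 30 kept their side of the threshold without each library in turn, all 72 did so with RLE scaling and 69 with DESeq2. The sign turned in 2 genes whose MCT step was not called: Col15a1 (ENSRNOG00000039197) was at 0.05 without MCT Week-2 replicate 1 and 0.10 without MCT Week-3 replicate 4 and as low as -0.42 without MCT Week-3 replicate 1, and Hmgn1 was at -0.27 without MCT Week-3 replicate 2 and at most 0.80 without MCT Week-3 replicate 1.

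Replicate numbers are shared by the groups, but rats of the same number did not deviate together (correlations of -0.096 to -0.042 in MCT and -0.041 to 0.038 in PBS lungs). With the replicate block, 40 rose and 125 fell in the MCT step, 47 and 51 in the PBS step, and 1102 and 1429 differed. Of the 72 named genes 41 kept their side under the block. The cause of these moves was not tested.

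At the depth of at least 28357609 reads in the libraries compared, genes under the expression filter were not tested, and 4 rats a group limit the precision. Symbols cover a minority of genes, mostly ones the study had listed, so that pathway counts describe those genes only.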
